A study of Homo sapiens with 6 samples.

Results

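The APOBEC3 cytidine deaminases were followed in HT-1080 cells, an established human fibrosarcoma cell line, after exposure to interferon gamma (IFNg). The members were taken by symbol and are the 7 human genes APOBEC3A, APOBEC3B, APOBEC3C, APOBEC3D, APOBEC3F, APOBEC3G and APOBEC3H, all of which were among the 17187 gene symbols of the deposited table. RNA was measured in 6 libraries of wild-type (WT) cells: 3 from cells given recombinant IFNg at 10 ng/ml for 8 h, and 3 control libraries from cells given PBS. The libraries were stranded, made from total RNA after removal of ribosomal RNA, and sequenced as paired ends. Whether the 3 libraries of a group stem from separate cultures is not stated, so the p-values measure spread between libraries that may be technical replicates. In bulk RNA a larger share of responding cells and more RNA per cell cannot be told apart.

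APOBEC3 enzymes convert cytosine to uracil in single-stranded DNA and so mutate the genomes of retroviruses and retroelements. APOBEC3G, APOBEC3F, APOBEC3D and APOBEC3H can be packaged into HIV-1 particles, and the viral protein Vif counters them by recruiting a cellular ubiquitin ligase. APOBEC3A and APOBEC3B can also reach the cell's own DNA, and both have been linked to clustered and scattered C-to-T and C-to-G mutations in tumours.

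The 7 genes lie side by side on the plus strand of chromosome 22. In GENCODE v29 (build GRCh38) the transcripts used here run from APOBEC3A at chr22:38957522-38963183 to APOBEC3H at chr22:39097285-39104067, with APOBEC3F at chr22:39040604-39053910 and APOBEC3G at chr22:39077005-39087743. Each enzyme holds 1 or 2 zinc-binding deaminase domains. A search of the translated coding sequences for a histidine, any residue, a glutamate, 20 to 35 residues, a proline, a cysteine, 2 to 4 residues and a cysteine found 1 match in APOBEC3A, APOBEC3C and APOBEC3H and 2 matches in APOBEC3B, APOBEC3D, APOBEC3F and APOBEC3G. The matches of the genes on which the results turn are shown. They carry the zinc-binding motif and the likeness between members that bears on read assignment. A match to the motif does not show that a domain is catalytically active. Capitals mark the codons of the histidine, the glutamate and the cysteine pair, and each stretch lies within 1 coding exon.
APOBEC3G domain 1, chr22:39080954-39081061: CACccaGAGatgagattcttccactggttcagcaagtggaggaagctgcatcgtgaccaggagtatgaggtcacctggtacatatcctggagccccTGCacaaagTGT
APOBEC3G domain 2, chr22:39086312-39086416: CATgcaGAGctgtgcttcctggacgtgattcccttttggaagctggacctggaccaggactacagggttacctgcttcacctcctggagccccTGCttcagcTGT
APOBEC3F domain 1, chr22:39044962-39045066: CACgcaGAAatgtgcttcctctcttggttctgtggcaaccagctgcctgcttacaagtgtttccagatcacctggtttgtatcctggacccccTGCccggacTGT
APOBEC3F domain 2, chr22:39052095-39052199: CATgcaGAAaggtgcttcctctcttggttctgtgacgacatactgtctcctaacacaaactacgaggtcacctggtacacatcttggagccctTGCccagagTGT
APOBEC3C, chr22:39017787-39017891: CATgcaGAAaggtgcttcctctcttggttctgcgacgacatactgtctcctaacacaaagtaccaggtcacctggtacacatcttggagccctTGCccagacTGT
APOBEC3B domain 2, chr22:38991365-38991475: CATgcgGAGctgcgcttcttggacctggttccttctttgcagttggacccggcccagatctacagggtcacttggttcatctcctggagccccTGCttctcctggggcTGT

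Several of these stretches recur letter for letter in another member. The stretch of APOBEC3F domain 2 was identical over 105 bases in APOBEC3D domain 2, that of APOBEC3F domain 1 over 105 bases in APOBEC3B domain 1, and that of APOBEC3B domain 2 over 111 bases in APOBEC3A. APOBEC3C matched the APOBEC3F domain 2 stretch at 101 of 105 bases (96.2%). APOBEC3G domain 2 was closest to APOBEC3B domain 2 and APOBEC3A, with 86 of 105 aligned bases identical in each (81.9%).

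Over whole transcripts, cut into all windows of 50 bases, 24% of the APOBEC3F windows and 19.1% of the APOBEC3G windows also stood in another member. Of these, 301 windows were shared between APOBEC3F and APOBEC3G, which is 11.4% of those of APOBEC3F and 16.9% of those of APOBEC3G. The share was 35.9% in APOBEC3B, 22.6% in APOBEC3A, 15.2% in APOBEC3D, 1.16% in APOBEC3C and 0% in APOBEC3H. How reads from shared stretches were assigned is not given in the sources used here, so the levels of all members except APOBEC3H are uncertain to that extent.

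Values are normalised read counts: the whole number of reads of a gene divided by 1 size factor per library. Libraries held 59556948 (IFNg 3) to 83501954 (control 2) reads assigned to genes, and 1 read was worth 1.16 and 0.835 in these 2 libraries. Counts of libraries of 1 group differed by more than sampling noise, with a chi-square per degree of freedom of 15 between IFNg 1 and IFNg 2 and 38.2 between control 1 and control 2, but 54 to 105 for each pair that held a library numbered 3. The libraries numbered 3 thus stood apart in both groups, and results are also given without both of them. The 10 mesenchymal markers summed to 578945 to 599601 in IFNg libraries and 611415 to 633251 in control libraries. VIM made up the largest part of each sum, with 314888 to 406141 over the libraries. PDGFRB had only 345 to 747. S100A4, with 19.5 to 83.5, lay below the leukocyte markers LYZ (97.6 to 157) and CSF1R (138 to 264). Of the 10, 0 passed limma's test in either direction, with 0 higher and 1 lower at an unadjusted p under 0.05. edgeR and DESeq2 called 0 of them. Without both libraries numbered 3, limma called 2 of the 10 lower, against 764 of all 14832 genes tested. All 3 IFNg sums lay below all 3 control sums. The part of this in the results was not tested. The 12 leukocyte markers summed to 320 to 400 in IFNg libraries and 340 to 454 in control libraries, with 5 to 6 and 5 to 7 of them at 0. The 5 epithelial markers summed to 48.7 to 136 in IFNg libraries and 82.7 to 108 in control libraries.

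After 8 h of IFNg, APOBEC3G and APOBEC3F, cytoplasmic enzymes with a pair of deaminase domains that restrict retroviruses, were higher, by 3.09-fold and 1.58-fold. APOBEC3D, which shares that domain layout, was 1.96-fold higher in the mean but did not pass the test. APOBEC3C and APOBEC3B, the most abundant members per length, overlapped between the groups and did not pass the test, and neither did the scarce APOBEC3A and APOBEC3H. With limma and Benjamini-Hochberg adjustment over all 15546 genes tested, 2 of the 7 members (28.6%) rose, against 3.27% of all genes, and 0 fell, against 1.05% of all genes. At an unadjusted p under 0.05, 3 of the 7 members were higher and 0 lower, against 1369 and 1004 of all 15546 genes. Likewise, edgeR and DESeq2 called 0 members lower, against 169 and 342 of all genes. edgeR called 2 members higher, against 482 of all genes, and DESeq2 called 3, against 717. All IFNg libraries lay above all control libraries for 3 members (APOBEC3D, APOBEC3F and APOBEC3G), a pattern found in 10.7% of all genes tested. The opposite pattern held for 0 members and for 9.28% of all genes tested. The median log2 difference was 0.35 over the 7 members and -0.0135 over all genes tested.

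**Figure D1:**
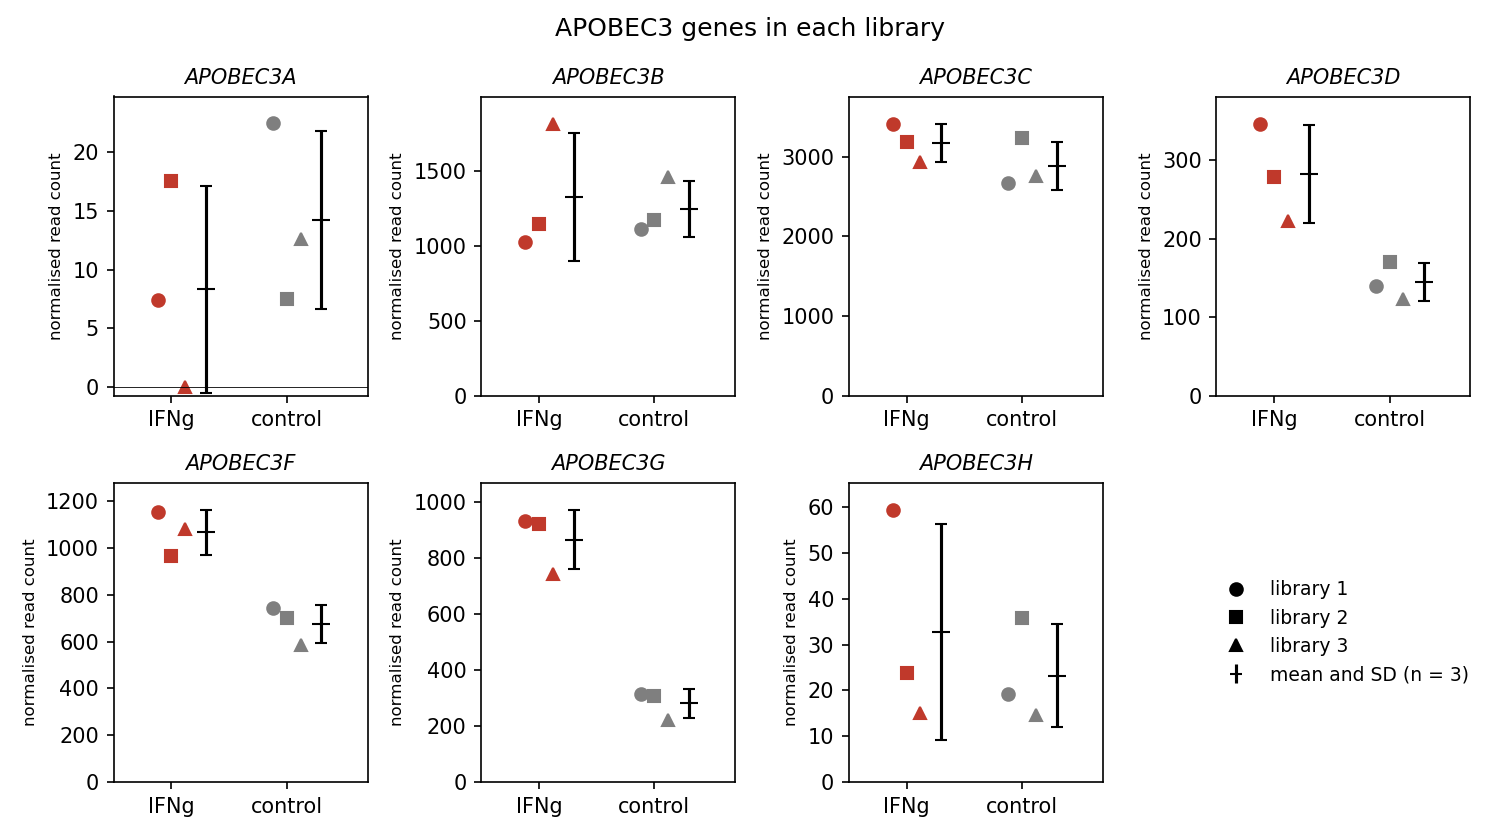
Normalised read count (vertical axes, linear, a scale per gene) of each APOBEC3 gene in the 3 IFNg libraries (red) and the 3 control libraries (grey), with a marker shape per library number and the mean with SD beside each group. The IFNg and control libraries separate for APOBEC3D, APOBEC3F and APOBEC3G and overlap for the other 4 genes.

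APOBEC3G, which was first known as the human factor that blocks HIV-1 lacking Vif, had 934, 922 and 745 normalised reads in IFNg 1, 2 and 3, against 313, 308 and 221 in control 1, 2 and 3. The lowest IFNg library lay well above the highest control library, and in both groups the library numbered 3 was lowest. The means were 867 ± 106 in IFNg libraries and 281 ± 51.7 in control libraries (SD, n = 3 each). The log2 difference was 1.63 ± 0.22 (SE; 95% interval 1.16 to 2.11), with a limma adjusted p of 0.00066. The call held in all 16 alternatives that were run, with log2 differences of 1.47 to 1.74 and adjusted p-values of 7.31e-12 (DESeq2) to 0.0178 (limma with no variance trend). Without both libraries numbered 3 the log2 difference was 1.58, with a limma adjusted p of 1.05e-05.

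APOBEC3F, which restricts Vif-deficient HIV-1 alongside APOBEC3G, had 1156, 966 and 1082 normalised reads in the IFNg libraries, against 743, 701 and 584 in the control libraries. The groups did not overlap. The means were 1068 ± 95.6 in IFNg libraries and 676 ± 82.5 in control libraries (SD, n = 3 each). The log2 difference was 0.66 ± 0.17 (95% interval 0.29 to 1.03), with a limma adjusted p of 0.0485, just under the threshold of 0.05. This call held in 5 of 16 alternatives, with adjusted p-values of 0.00477 (DESeq2) to 0.2. It was lost when any 1 of the 6 libraries was left out (limma adjusted p of 0.064 without control 1 to 0.2 without IFNg 1), and without both libraries numbered 3 the log2 difference was 0.55 with an adjusted p of 0.0575. The direction was the same in every one of these fits.

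APOBEC3D, whose second zinc stretch is that of APOBEC3F, had 347, 279 and 222 normalised reads in the IFNg libraries, against 140, 170 and 123 in the control libraries. All 3 IFNg libraries lay above all 3 control libraries. The means were 283 ± 62.2 in IFNg libraries and 144 ± 24.1 in control libraries (SD, n = 3 each), and the log2 difference was 0.95 ± 0.30 (95% interval 0.30 to 1.60). With limma the unadjusted p was 0.00788 and the adjusted p 0.116. DESeq2 alone of the 16 alternatives passed the threshold, with an adjusted p of 0.0332, against 0.083 with edgeR. Leaving out single libraries gave log2 differences of 0.80 to 1.11, and leaving out both libraries numbered 3 gave 1.003 with a limma adjusted p of 0.0543.

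APOBEC3C, a single-domain enzyme with weak activity against HIV-1, had 3412, 3182 and 2935 normalised reads in the IFNg libraries, against 2676, 3235 and 2754 in the control libraries. Control 2 lay above IFNg 2 and IFNg 3, so the groups overlapped. The means were 3176 ± 238 in IFNg libraries and 2888 ± 303 in control libraries (SD, n = 3 each). The log2 difference of 0.14 had a 95% interval of -0.12 to 0.39 and a limma adjusted p of 0.645, and it was 0.16 without both libraries numbered 3.

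APOBEC3B, the nuclear member with a pair of domains, had 1024, 1144 and 1816 normalised reads in the IFNg libraries, against 1114, 1170 and 1458 in the control libraries. The libraries numbered 3 were the highest of both groups, and the groups overlapped. The means were 1328 ± 427 in IFNg libraries and 1247 ± 185 in control libraries (SD, n = 3 each). The log2 difference was 0.054 (95% interval -0.40 to 0.51; limma adjusted p = 0.947). Its sign turned without IFNg 3 (-0.19), without control 1 (-0.022) and without both libraries numbered 3 (-0.077). The interval therefore leaves room for a fall or a rise of moderate size. When the reads of APOBEC3A and of a separate row for the hybrid transcript APOBEC3A_B were added to APOBEC3B, an alternative chosen after the data were seen, the log2 difference was 0.051.

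APOBEC3A, a single-domain enzyme best known from myeloid cells, had 7.43, 17.6 and 0 normalised reads in the IFNg libraries, against 22.5, 7.52 and 12.7 in the control libraries. In whole reads these were 25 over the IFNg libraries and 43 over the control libraries, a ratio of 0.632 after scaling (95% interval 0.37 to 1.06, counting error only). The log2 difference was -1.38 with a 95% interval of -3.82 to 1.07 (limma adjusted p = 0.634), and leaving out IFNg 3 moved it to -0.16 (-0.18 without both libraries numbered 3). Its size also depended on the method, with -2.02 and -0.79 for pseudocounts of 0.25 and 4, -0.75 with edgeR and -0.76 with DESeq2, none of which passed the threshold. A change of moderate size in either direction was not detectable at this depth. The APOBEC3A_B row had 15 reads over the IFNg libraries, all in IFNg 2, and 8 reads over the control libraries.

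APOBEC3H, a single-domain enzyme whose stability differs between human haplotypes, had 59.5, 23.8 and 15.1 normalised reads in the IFNg libraries, against 19.3, 35.9 and 14.6 in the control libraries. IFNg 1 alone lay above all controls. Summed over libraries there were 100 reads in IFNg libraries and 76 in control libraries, a ratio of 1.43 after scaling (95% interval 1.05 to 1.95, counting error only). Single libraries of 1 group differed by more than that, with 13 to 64 reads in IFNg libraries and 15 to 43 in control libraries. The log2 difference of 0.35 had a 95% interval of -1.15 to 1.85 (limma adjusted p = 0.879) and turned to -0.19 without IFNg 1; without both libraries numbered 3 it was 0.50.

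**Figure D2:**
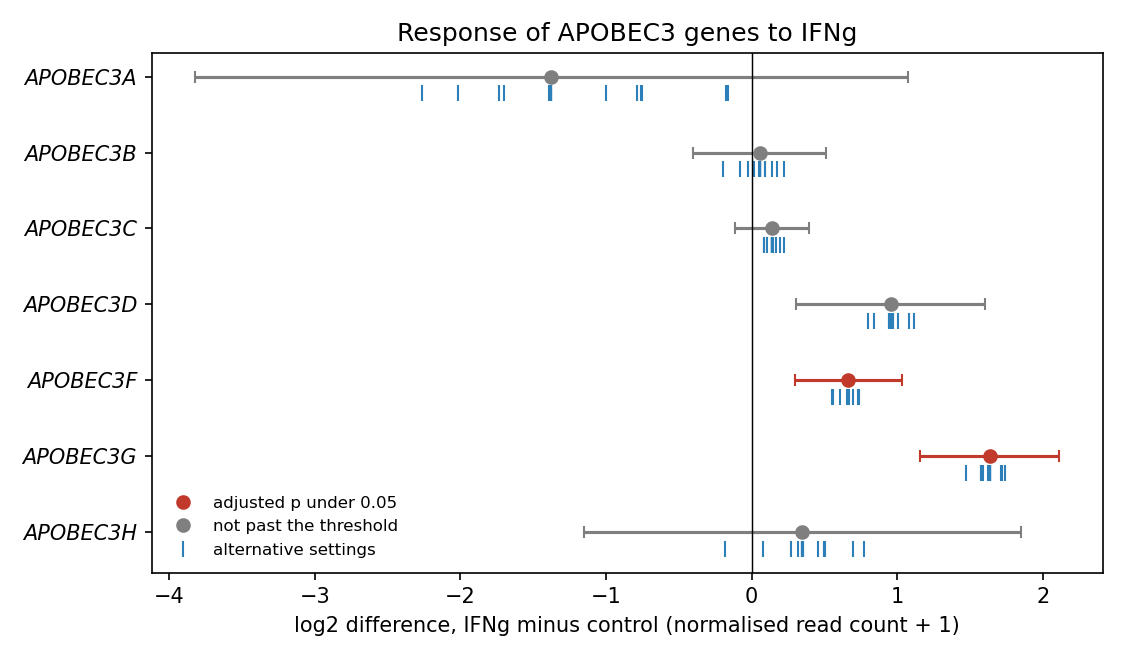
Log2 difference (IFNg minus control, of normalised read count + 1) of each APOBEC3 gene as a point with its 95% interval, red where the limma adjusted p was under 0.05; blue ticks give the same difference under each alternative setting. APOBEC3G lies between 1.47 and 1.74 under all alternatives, while the ticks of APOBEC3B and APOBEC3H fall on both sides of 0.

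Whether members responded differently was tested on the log2 ratio of 2 members within each library, over all 21 pairs. With 3 libraries a group the exact permutation test cannot give a 2-sided p below 0.1, and 7 pairs reached it with no overlap between groups (each 0.3 after Benjamini-Hochberg adjustment over the 21 pairs). No pair could therefore pass 0.05. APOBEC3G took part in 5 of these 7 pairs, against APOBEC3A, APOBEC3B, APOBEC3C, APOBEC3D and APOBEC3F, and APOBEC3C against APOBEC3D and APOBEC3F made up the rest. The log2 ratio of APOBEC3C to APOBEC3G was 1.88 ± 0.096 in IFNg libraries and 3.37 ± 0.27 in control libraries (SD, n = 3 each). That of APOBEC3F to APOBEC3G was 0.30 ± 0.24 in IFNg libraries and 1.28 ± 0.11 in control libraries, with ranges of 0.068 to 0.54 and 1.18 to 1.40. That of APOBEC3D to APOBEC3G was -1.63 ± 0.17 in IFNg libraries and -0.95 ± 0.18 in control libraries. The log2 ratio of APOBEC3D to APOBEC3F was -1.93 ± 0.30 in IFNg libraries and -2.22 ± 0.18 in control libraries (exact permutation p = 0.3), with overlapping groups. The difference of 0.29, and of 0.19 to 0.46 when single libraries were left out, does not show that the 2 genes responded alike. Without IFNg 2, without IFNg 3 or without both libraries numbered 3, the number of pairs with no overlap was 11, but groups of fewer libraries separate more easily, so this is no sign of a larger difference.

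Levels of different genes compare only per length, so each normalised read count was also divided by the length of the transcript. Per kb of transcript, APOBEC3C was the most abundant member in the mean, with 1127 ± 84.5 in IFNg libraries and 1025 ± 107 in control libraries, followed by APOBEC3B with 866 ± 279 and 814 ± 120 in the same order of groups (SD, n = 3 each). The library values of these 2 genes overlapped in both groups. APOBEC3G came next in IFNg libraries, with 473 ± 57.7 in IFNg libraries and 153 ± 28.2 in control libraries. APOBEC3F had 396 ± 35.5 in IFNg libraries and 251 ± 30.6 in control libraries, and so ranked below APOBEC3G with IFNg and above it without.

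In each IFNg library APOBEC3G stood above APOBEC3F per kb of transcript (509 against 429, 503 against 359 and 406 against 402), although the ranges over libraries overlapped. In control libraries APOBEC3F stood above APOBEC3G with no overlap (217 to 276 against 120 to 171). This exchange of ranks depended on the length used: per kb of coding sequence APOBEC3F had 954 ± 85.5 and APOBEC3G 752 ± 91.8 in IFNg libraries, and 604 ± 73.7 and 244 ± 44.9 in control libraries. The 3 lowest ranks were the same with both lengths. Per kb of transcript APOBEC3D had 112 ± 24.6 in IFNg libraries and 57.1 ± 9.54 in control libraries, APOBEC3H 33.2 ± 23.8 and 23.5 ± 11.3 in that order of groups, and APOBEC3A 5.77 ± 6.11 and 9.85 ± 5.27. APOBEC3H and APOBEC3A overlapped in control libraries and not in IFNg libraries. Apart from the overlaps named here, no neighbours in the order by transcript length overlapped in either group.

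Summed over the 7 genes, the level per kb of transcript was 3013 ± 127 in IFNg libraries and 2333 ± 117 in control libraries, a ratio of 1.29 (1.22 per kb of coding sequence). APOBEC3G made up 15.7% ± 2.44 of this sum in IFNg libraries and 6.57% ± 1.30 in control libraries. APOBEC3F made up 13.1% ± 0.936 in IFNg libraries and 10.8% ± 1.60 in control libraries. The share of APOBEC3C was 37.5% ± 3.74 in IFNg libraries and 43.9% ± 2.67 in control libraries, and that of APOBEC3B was 28.6% ± 8.17 and 34.9% ± 5.08 in that order of groups. These shares depended on the length used. Per kb of coding sequence APOBEC3G made up 8.59% ± 0.933 in IFNg libraries and 3.39% ± 0.622 in control libraries, and APOBEC3F 10.9% ± 0.695 and 8.43% ± 1.20 in that order of groups. APOBEC3C then made up 63.6% ± 3.03 in IFNg libraries and 70.3% ± 1.98 in control libraries, and APOBEC3B 13.3% ± 4.59 and 15.2% ± 2.71. APOBEC3D, APOBEC3H and APOBEC3A each stayed below 5% of the sum in every library with both lengths.

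**Figure D3:**
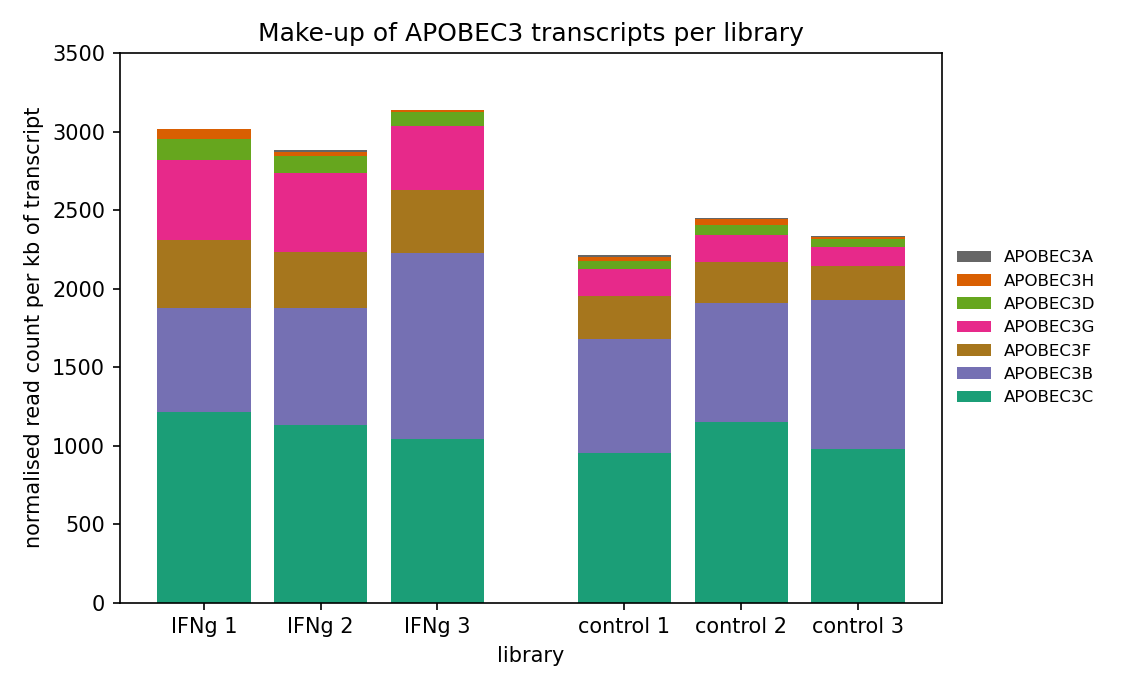
Normalised read count per kb of transcript (vertical axis) of the 7 APOBEC3 genes, stacked in each of the 3 IFNg libraries and the 3 control libraries. The stacks reach 2883 to 3137 in IFNg libraries and 2213 to 2448 in control libraries, and the APOBEC3G band is wider in every IFNg library (406 to 509) than in any control library (120 to 171).

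Among 14212 genes with a mean of at least 10, the profiles over the 6 libraries that lay closest to APOBEC3G, by root mean square distance of centred log2 values, were PHF11 (0.121), ALPK1 (0.132) and BDKRB2 (0.142), with log2 differences of 1.63, 1.89 and 1.43. Those closest to APOBEC3F were IRF2 (0.0476), GCA (0.0624) and DYRK4 (0.0817), with log2 differences of 0.71, 0.72 and 0.73. GCA did not pass the test (limma adjusted p = 0.388). The log2 differences of APOBEC3G and APOBEC3F were 1.63 and 0.66. These distances describe 6 libraries that share 1 treatment contrast.

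Neither of the nearest neighbours of the cluster passed the test. CBX6, a Polycomb chromobox gene next to APOBEC3A, had 5943, 6009 and 6487 normalised reads in IFNg libraries, against 5229, 5484 and 7591 in control libraries (log2 difference 0.030 ± 0.13, limma adjusted p = 0.953). CBX7, a related gene on the APOBEC3H side, had 190.5, 224 and 99.6 in IFNg libraries, against 285, 403 and 202 in control libraries (log2 difference -0.81 ± 0.37, limma adjusted p = 0.326). Of 19 neighbours tested, limma called 2 higher (10.5%, against 3.27% of all genes tested) and 1 lower (against 1.05%). At an unadjusted p under 0.05, 2 were higher and 3 lower, against 1369 and 1004 of all 15546 genes. edgeR and DESeq2 each called 2 higher, against 482 and 717 of all genes, and 1 lower, against 169 and 342. The median log2 difference of the neighbours was -0.041. GTPBP1, a GTP-binding protein gene, was 0.40 ± 0.090 higher on the log2 scale (adjusted p = 0.0258), and ATF4, which encodes a stress-response transcription factor, fell by 0.39 ± 0.098 (adjusted p = 0.0481). The GTPBP1 call was lost without control 1 or any 1 IFNg library (limma adjusted p of 0.0713 to 0.136) and the ATF4 call without control 2, IFNg 1 or IFNg 2 (0.17 to 0.241). CACNA1I, a calcium channel gene, had 72.5, 70.3 and 81.1 normalised reads in IFNg libraries (216 reads) and 0 reads in all 3 control libraries. Its limma adjusted p was 0.000512, and 0.000236 with no filter on low values. It passed the filter only through the IFNg libraries, where it was high, so its place among the 2 higher neighbours depends on them. It dropped out of every filtered fit that left out an IFNg library. A count of 0 allows up to 3 reads over the control group, by counting error only.

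**Figure D4:**
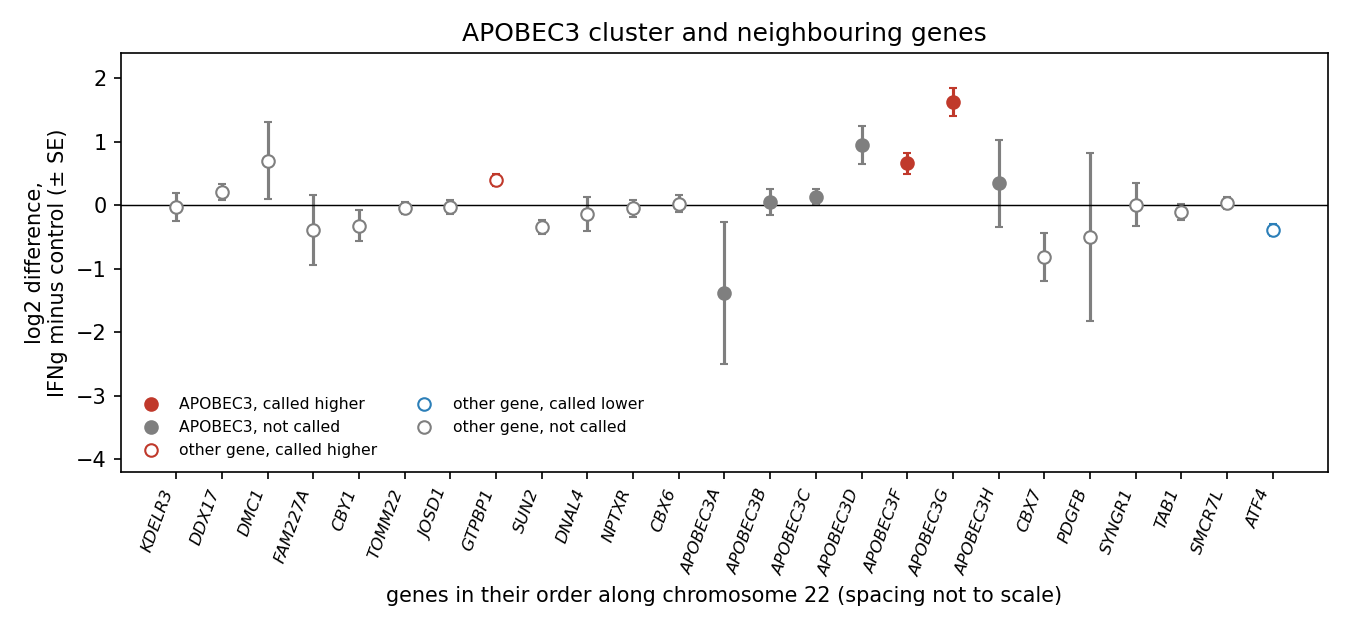
Log2 difference (IFNg minus control, points with SE) of the 7 APOBEC3 genes (filled) and 18 neighbouring genes (open) in their order along chromosome 22, with spacing not to scale; red marks genes called higher and blue genes called lower. APOBEC3G at 1.63 is the highest point drawn and APOBEC3F lies at 0.66; CACNA1I, with 0 reads in the control libraries, is not drawn.

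Genes that act with or against the APOBEC3 enzymes were read from lists chosen by function. For comparison, limma called 3.27% of all 15546 genes tested higher and 1.05% lower. At an unadjusted p under 0.05, 1369 of all genes were higher and 1004 lower. edgeR called 482 of all genes higher and 169 lower, and DESeq2 717 and 342. Of 12 genes of the ubiquitin ligase system that Vif recruits, or that otherwise act on Vif, limma called 0 higher and 0 lower, with 1 and 0 at an unadjusted p under 0.05, and edgeR and DESeq2 called 0 in both directions. MDM2, a ubiquitin ligase gene and one of the most abundant of these, had 29313, 27996 and 34101 normalised reads in IFNg libraries, against 28169, 24976 and 28570 in control libraries (log2 difference 0.16, limma adjusted p = 0.506). HUWE1, also a ubiquitin ligase gene, had 65621, 65988 and 63211 in IFNg libraries, against 68427, 74011 and 65227 in control libraries (log2 difference -0.090, limma adjusted p = 0.702). Of 18 genes for proteins found with APOBEC3G or APOBEC3F in RNA-protein complexes, edgeR and DESeq2 each called 2 higher and 0 lower. At an unadjusted p under 0.05, 1 was lower with limma. With limma and adjustment, 3 rose (16.7%) and 0 fell. They were MOV10, an RNA helicase gene (log2 difference 0.93 ± 0.097, limma adjusted p = 7.38e-05), HSPA8, a constitutive chaperone gene (0.70 ± 0.12, adjusted p = 0.00437), and HSPA1A, an inducible chaperone gene named here after its values were seen. HSPA1A had 1846, 1655 and 1563 normalised reads in IFNg libraries, against 328, 501 and 1181 in control libraries (log2 difference 1.54 ± 0.35, limma adjusted p = 0.0277). Every fit that left out a single library, other than control 3, ended its call (limma adjusted p of 0.0653 to 0.1), as did edgeR (0.0526) and DESeq2 (0.141).

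Of 24 genes that handle uracil and abasic sites in DNA or the nucleotide pool, 2 rose (8.33%) and 0 fell. Of all genes tested, 3.27% rose and 1.05% fell. At an unadjusted p under 0.05, 12 of the 24 were higher and 0 lower, against 1369 and 1004 of all 15546 genes. edgeR called 2 higher, against 482 of all genes, and DESeq2 6, against 717. Both called 0 lower, against 169 and 342 of all genes. SAMHD1, a dNTP hydrolase gene, had 5380, 5390 and 7193 normalised reads in IFNg libraries, against 991, 1107 and 1193 in control libraries (log2 difference 2.44 ± 0.14, limma adjusted p = 3.26e-07). MSH6, a mismatch repair gene, was 0.54 ± 0.12 higher (limma adjusted p = 0.0293), and the call ended when a single library other than control 3 was left out (0.0573 to 0.144). UNG, which removes the uracil that APOBEC3 enzymes leave in DNA and is named here after its values were seen, had 4287, 4827 and 5769 normalised reads in IFNg libraries, against 2566, 2556 and 4200 in control libraries. The groups did not overlap, and the log2 difference of 0.71 ± 0.18 missed the threshold with limma (adjusted p = 0.053) and with edgeR (0.0667). It passed with DESeq2 (adjusted p = 0.00535), with the filter at 10 (limma adjusted p = 0.046) and with a replicate block (2.05e-05). It also passed without control 3 (limma adjusted p = 0.00021) and without both libraries numbered 3 (3.84e-06). Without control 3, limma called 10 of the 24 genes higher and 1 lower, against 873 and 493 of all 15187 genes tested. Without both libraries numbered 3 it called 10 higher and 1 lower, against 1047 and 764 of all 14832. Without any other single library 1 was called higher, against 334 to 417 of all genes.

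Regulators reported for APOBEC3B, among them the DREAM complex, E2F factors and NF-kB subunits, were read beside that gene, which did not pass the test. Of 27 tested, 1 rose and 0 fell. The 3.7% that rose is near the 3.27% of all genes tested, of which 1.05% fell. At an unadjusted p under 0.05, 8 of the 27 were higher and 0 lower, against 1369 and 1004 of all 15546 genes. edgeR called 1 higher, against 482 of all genes, and DESeq2 2, against 717. Both called 0 lower, against 169 and 342 of all genes. TEAD4, a transcription factor gene, was 0.50 ± 0.10 higher (limma adjusted p = 0.0162), a call lost without control 1, IFNg 1 or IFNg 2 (0.0568 to 0.119). MYBL2, the B-MYB gene, and PCNA, a replication clamp gene of the uracil list, were named after their values were seen because the libraries numbered 3 were high in them as in APOBEC3B. MYBL2 had 3260, 3030 and 4636 normalised reads in IFNg libraries, against 2115, 2526 and 5013 in control libraries (log2 difference 0.26 ± 0.27, limma adjusted p = 0.731). PCNA had 11829, 10971 and 15945 in IFNg libraries, against 6335, 6836 and 12046 in control libraries (0.66 ± 0.21, adjusted p = 0.125). Of the 27 regulators, limma called 9 higher without both libraries numbered 3, against 1047 of all 14832 genes tested. It called 8 higher without control 3, against 873 of all 15187. Leaving out control 1, IFNg 1 or IFNg 2 gave 0, against 334 to 417 of all genes. Without control 3 both MYBL2 (0.63, limma adjusted p = 0.0269) and PCNA (0.95, adjusted p = 0.000253) passed, while APOBEC3B was at 0.17 (adjusted p = 0.722). The part of this difference between libraries in the APOBEC3B result was not tested.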

How the data were processed

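Total RNA of HT-1080 cells was measured in 3 IFNg and 3 control libraries, grouped by the treatment label. Per the submitters' processing notes, FastQC 0.11.3, TopHat2 2.0.13, Cufflinks and Cuffdiff 2.2.1 were used with builds hg19 and GRCh37; no role or order is stated, and for the counter, its use of strand and its treatment of reads that match several genes the sources used here give nothing. The deposited signal has 1 value per gene and library and is called RPKM in its name, but every positive value (100%) equalled a whole number of steps of 1 size per library (within 0.001 reads), so the authors deposited whole reads divided by 1 size factor per library, not divided by gene length.

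The members, gene lists and tests were chosen with earlier results of these data known. The main test was limma 3.58.1 (R 4.3.3) on log2(value + 1) with a variance trend and no term besides group, over genes that reached 0.5 in 3 or more libraries, 2-sided, with Benjamini-Hochberg adjustment at 0.05. Log2 differences of scarce genes depend on the pseudocount and on single libraries at or near 0, so their size is uncertain. Alternatives were pseudocounts of 0.25 and 4, no filter, a filter at 10, no variance trend, edgeR 4.0.16 and DESeq2 1.42.0 on the recovered reads, TMM rescaling, a replicate block, each library left out, and both libraries numbered 3 left out. The code was tested on simulated data. Intervals of pooled reads cover counting error only, and PCR copies are not independent molecules.

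Named genes were all members, from each list up to 2 called genes per direction with the smallest adjusted p (where none was called, the 2 with the highest mean), the ADAR relatives, the nearest neighbours CBX6 and CBX7, and the 3 profiles closest to each called member. Lists covered other deaminases, uracil repair, retrovirus restriction, APOBEC3B regulators, interferon regulators, the Vif ligase, RNA partners and the locus. Lengths, coordinates and sequences came from 1 GENCODE v29 transcript per gene (CCDS, APPRIS principal; GRCh38, shortest span), in place of the coding lengths from RefSeq proteins that had been planned; transcript length was added after the data were seen. No coordinates of the authors' build are given. Some genes that this rule would name are not reported here.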

Additional observations from a re-analysis of the deposited data

How the results depend on the processing

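The call of APOBEC3G held in all 16 alternatives, and that of APOBEC3F in 5 of 16. The number of members called higher was 1, against 2, with pseudocounts of 0.25 and 4, with no filter, with no variance trend, without both libraries numbered 3 and without each single library (1 to 1). Over all genes, 509 higher and 163 lower calls became 279 and 41 with no variance trend, 1047 and 764 without both libraries numbered 3, and 334 to 873 and 40 to 493 when single libraries were left out, the highest numbers being without control 3. DESeq2 called 717 genes higher and 342 lower, and edgeR 482 and 169. The replicate numbers were not taken as pairs in the main test. Deviations from the group means correlated at 0.0437, 0.0209 and 0.111 for numbers 1, 2 and 3. IFNg 1 and IFNg 3 each correlated best with the control of their own number, and IFNg 2 with control 1 (0.0289). These correlations do not settle whether the numbers are pairs. With a replicate block, 915 genes were higher and 549 lower, with 2 members called higher (APOBEC3F adjusted p = 0.0123), 11 uracil repair genes and 6 APOBEC3B regulators higher and 2 mesenchymal markers lower. The number of member pairs with no overlap was 7, 7 to 11 when single libraries were left out and 11 without both libraries numbered 3, where fewer libraries separate more easily. Signs of uncalled differences turned for APOBEC3B (-0.077 without both libraries numbered 3; -0.19 to 0.22 over single libraries), APOBEC3H (-0.19 to 0.77), ADARB2 (0.43 without both libraries numbered 3; -1.05 to 0.13) and CBX6 (-0.071 to 0.20); the cause was not tested. Over the differences of single named genes, 516 recomputed values kept direction and side of the threshold, 50 lost and 11 gained a call, and 10 changed sign. The few reads of APOBEC3A and APOBEC3H limit what can be read from them.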

Other observations

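Among 13 other deaminase genes tested, 1 rose (7.69%, against 3.27% of all genes tested) and 0 fell (against 1.05%). At an unadjusted p under 0.05, 1 was lower. edgeR and DESeq2 each called 1 higher, against 482 and 717 of all genes, and 0 lower, against 169 and 342. The one that rose was ADAR, the adenosine deaminase of double-stranded RNA, with 59512, 57873 and 62827 normalised reads in IFNg libraries, against 28351, 28630 and 29212 in control libraries (log2 difference 1.06 ± 0.081, limma adjusted p = 4.35e-06). Its relative ADARB1 had 4217, 3941 and 3619 in IFNg libraries, against 4623, 4582 and 3527 in control libraries (log2 difference -0.10, limma adjusted p = 0.781). ADARB2, a further relative, had 4 reads over the IFNg libraries and 7 over the control libraries.

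Of 31 genes for other factors that restrict retroviruses or retroelements, 19 rose (61.3%, against 3.27% of all genes tested) and 0 fell (against 1.05%). At an unadjusted p under 0.05, 23 were higher and 1 lower. edgeR and DESeq2 called 0 lower, against 169 and 342 of all genes. The median log2 difference was 0.75, against -0.0135 over all genes tested. GBP2 and GBP5, guanylate-binding proteins that hamper the maturation of retroviral envelopes, were 5.64 ± 0.11 and 7.71 ± 0.23 higher on the log2 scale (limma adjusted p = 8.52e-11 and 8.43e-10). SAMHD1 and MOV10, given in the report, are also on this list. Of 18 interferon signalling genes tested, 12 rose (66.7%, against 3.27% of all genes tested) and 1 fell (against 1.05%). BATF2, a transcription factor gene, was 5.32 ± 0.22 higher (limma adjusted p = 1.66e-08). IFNGR1, a receptor subunit of IFNg, fell by 0.61 ± 0.15 (limma adjusted p = 0.0356), and this call ended when a single library other than control 3 was left out (0.0751 to 0.141). In log2 units APOBEC3G, at 1.63, lay above the median of both lists (0.75 and 1.27), and APOBEC3F, at 0.66, below both.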
